A study of Mus musculus with 4 samples.

Results

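Satb1, Bcl11b, Lef1, Myb, Ets1 and Bcl6 are transcription factors that CD4+CD8+ double-positive thymocytes express while they rearrange and test the T cell receptor alpha chain. They were followed here through every probe set whose single gene name in the array annotation is one of these 6 symbols, which gave 15 of the 45037 probe sets and 6 of the 17097 genes that the array names. The arrays profiled sorted CD4+CD8+ double-positive thymocytes of C57BL/6 mice. Of the 4 arrays, 2 were labelled hCD2-iCre x Gfi1fl/fl (the floxed label), for mice that combine floxed Gfi1 alleles with the hCD2-iCre transgene, and 2 were labelled WT. The comparison asks how transcript signals differed between these genotypes. The labels used here name no treatment, give no age and do not say that the WT mice carried the transgene, so an effect of the recombinase cannot be told apart from that of the floxed alleles. The hCD2-iCre transgene expresses a codon-improved Cre recombinase under human CD2 control elements and is active in early lymphoid progenitors, so deletion is not limited to the double-positive stage. No label states that the 2 arrays of a genotype came from different animals. Every p-value here therefore rests on the spread between arrays, which may be technical.

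The double-positive stage lies between the pre-T cell receptor checkpoint and positive selection. Satb1 organises chromatin loops at lineage genes, Bcl11b keeps cells committed to the T lineage, and Lef1 is an HMG-box factor that acts with its relative Tcf1. Myb and Ets1 are activators that developing thymocytes need, whereas Bcl6 is a zinc-finger repressor best known from follicular helper T cells and germinal centre B cells. Gfi1, the gene targeted in these mice, is itself a zinc-finger repressor of haematopoietic cells.

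Gfi1 and markers of the sorted population are given first. All values below are deposited log2 RMA signals, a background-corrected and quantile-normalized measure per probe set, and a difference is the hCD2-iCre x Gfi1fl/fl label minus the WT label on that scale. The 1 probe set of Gfi1 gave 11.47 and 11.32 on the arrays labelled hCD2-iCre x Gfi1fl/fl, against 10.17 and 10.08 on those labelled WT, a difference of 1.27 ± 0.13 (SE; limma, adjusted p = 0.00976). It was thus higher, not lower, on the floxed label. Where this probe set lies relative to the deleted part of the gene is not given in the sources used here, and outside that part it would not test the label, so the labels were not verified and directions are given between labels. That call was lost without WT replicate 1 or WT replicate 2 (adjusted p = 0.0526 and 0.0683). All 11 measured markers of double-positive thymocytes, Cd4, Cd8a and Rag1 among them, lay above the array median on all 4 arrays. Of these, 1 fell (Dntt, the terminal transferase, by 0.69 on the log2 scale; limma, adjusted p = 0.0413) and 10 did not pass the test. The Dntt call was marginal and was lost by an ordinary t statistic, which called no gene. The other alternatives were not examined for Dntt. With Dntt counted, 10 of the 11 differences were below 0, with a median of -0.17 against -0.02 over all genes. Of 32 markers of B, myeloid, NK and gamma-delta T, epithelial and erythroid cells, 21 lay below the median on every array, 8 lay above it on every array, and none was called by limma (none adjusted by an ordinary t statistic either). At an unadjusted p under 0.05 there were 6 of the 32, against 8.29% of all genes, and for 14 the labels did not overlap, against 34.5% of all genes. The epithelial adhesion molecule Epcam had 8.63 and 7.69 on the hCD2-iCre x Gfi1fl/fl arrays, against 6.89 and 6.06 on the WT arrays, and the claudin Cldn4 had 9.05 and 8.50 on the hCD2-iCre x Gfi1fl/fl arrays, against 7.91 and 7.12 on the WT arrays. The other 4 epithelial markers, Foxn1, Psmb11, Krt5 and Krt8, lay below the median on every array. The carbonic anhydrase Car2, listed as erythroid, had 6.74 and 5.69 on the hCD2-iCre x Gfi1fl/fl arrays, against 8.51 and 7.66 on the WT arrays, and the B cell receptor chain Cd79b had 7.41 and 6.28 on the hCD2-iCre x Gfi1fl/fl arrays, against 8.26 and 7.88 on the WT arrays. Hba-a1, also listed as erythroid, had 8.72 and 10.45 on the hCD2-iCre x Gfi1fl/fl arrays, against 7.35 and 10.17 on the WT arrays. Blnk of the B cell list, Lyz2 of the myeloid list and Il17re were the others above the median on every array. Ms4a1, Cd79a, Pax5 and Ebf1 of the B cell list and Alas2, Pf4 and Itga2b of the erythroid list lay below the median on every array. The part of other cell types in the results below was not tested. The arrays differed in cell cycle transcripts. The mean of 19 cell cycle genes was 8.18 and 9.86 on hCD2-iCre x Gfi1fl/fl replicates 1 and 2, against 8.92 and 9.33 on WT replicates 1 and 2.

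Of the 15 member probe sets, limma called none at an adjusted p of 0.05, over a table in which 0.766% of probe sets were called, 0.664% as higher and 0.102% as lower on the hCD2-iCre x Gfi1fl/fl label. At an unadjusted p under 0.05 there were 2 of the 15, both of Bcl6, against 7.64% of all probe sets, and both were lower on the floxed label, as were 3.28% of all probe sets at that p. An ordinary t statistic gave 3 unadjusted, these 2 and that of Lef1, and none adjusted. By that statistic, 3080 of the 45037 probe sets were under 0.05 unadjusted and 1 adjusted. With 1 probe set per gene, none of the 6 genes was called, against 1.11% of all genes. The 2 labels did not overlap for 6 of the 15 probe sets, 4 lower and 2 higher on the floxed label, against 34.7% of all probe sets (17.9% lower and 16.8% higher). The median difference was -0.03 over the 15 and -0.01 over the table. Without regard to sign, the medians were 0.21 and 0.11. All 15 lay above the upper quartile of every array, between 7.36 and 12.7. For 14 of the 15 the 95% interval of the difference stayed within 1 log2 unit of 0, that is within 2-fold, the exception being a probe set of Bcl6. Intervals are wide because they rest on 2 arrays per label, and a p that misses the threshold does not show that the labels were alike. In sorted bulk cells, fewer expressing cells and less RNA per cell cannot be told apart.

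**Figure D1:**
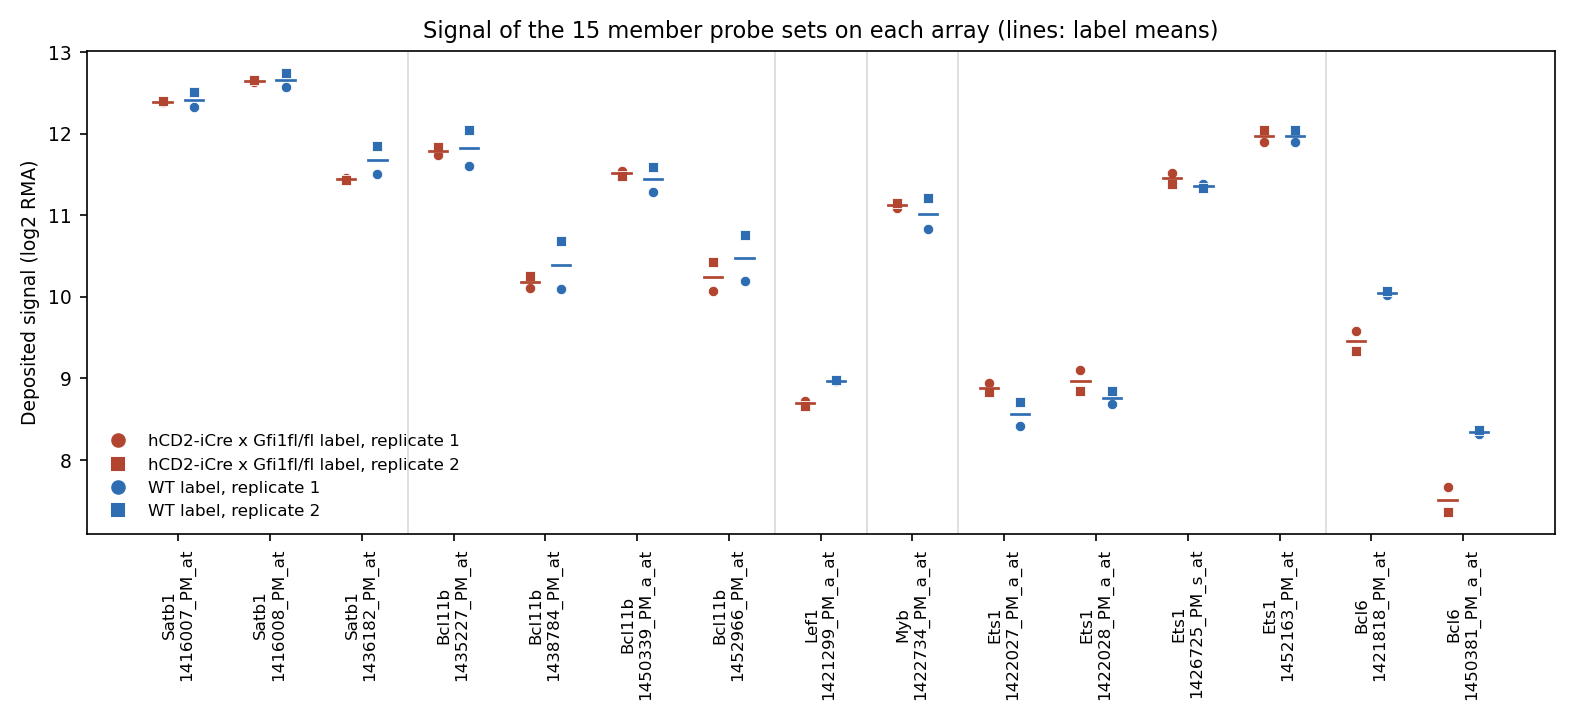
Deposited log2 RMA signal (vertical axis) of the 15 probe sets of the 6 genes on each of the 4 arrays, with circles for replicate 1, squares for replicate 2 and a line at each label's mean. Both Bcl6 probe sets lie lower on both hCD2-iCre x Gfi1fl/fl arrays. For Myb, for 2 of the 3 Satb1 probe sets and for Bcl11b except 1452966_PM_at, those arrays lie between the WT arrays.

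Bcl6 (chr16:23965050-23988866, minus strand, GRCm38.p6), the repressor of the group, stood farthest from 0. Its brighter probe set (1421818_PM_at) had 9.58 and 9.34 on the hCD2-iCre x Gfi1fl/fl arrays, against 10.02 and 10.07 on the WT arrays. The other (1450381_PM_a_at) had 7.67 and 7.36 on the hCD2-iCre x Gfi1fl/fl arrays, against 8.31 and 8.36 on the WT arrays. In both, the 2 labels did not overlap, the WT arrays were nearly equal and the difference exceeded the gap between replicates of either label. The brighter one differed by -0.59 ± 0.17 (SE, n = 2 each; 95% interval -0.99 to -0.19), a signal 1.50-fold lower (interval 1.14 to 1.98). The other differed by -0.82 ± 0.23 (SE, n = 2 each; 95% interval -1.36 to -0.29), a signal 1.77-fold lower (interval 1.22 to 2.57). Neither passed the test over the whole table (limma, unadjusted p = 0.0104 and 0.00842; adjusted p = 0.346 and 0.310), and 1221 probe sets had a smaller p than the lower of these. The 2 probe sets were designed against the same transcript record and are not independent readings. Bcl6 was lower on hCD2-iCre x Gfi1fl/fl replicate 2, the array with the highest cell cycle mean, than on replicate 1. On that replicate 1, the array with the lowest cell cycle mean, both probe sets read below both WT arrays. The WT arrays, with cell cycle means of 8.92 and 9.33, were nearly equal in Bcl6, replicate 2 being slightly higher. The differences were -0.71 and -0.98 without hCD2-iCre x Gfi1fl/fl replicate 1 and -0.47 and -0.67 without replicate 2. With the cell cycle mean as a covariate the differences were -0.60 and -0.84 (limma, adjusted p = 0.138 and 0.135). The part of cell cycle in the Bcl6 signal was not tested.

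Lef1 (chr3:131110297-131224357, plus strand), the HMG-box partner of Tcf1, was read by 1 probe set. It had 8.73 and 8.67 on the hCD2-iCre x Gfi1fl/fl arrays, against 8.96 and 8.98 on the WT arrays. The labels did not overlap and all 4 values spanned 0.31. The difference was -0.27 ± 0.19 (SE, n = 2 each; 95% interval -0.72 to 0.17) and did not pass the test (limma, adjusted p = 0.866). The SE is larger than the replicates of this gene alone would give, because limma draws each variance towards that of probe sets of like signal. By an ordinary t statistic the unadjusted p of Lef1 was 0.0119 and the adjusted p 0.604. Leaving out each array in turn kept the difference between -0.30 and -0.24.

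Bcl6 and Lef1 had the largest differences by their brightest probe sets, and for that reason the 250 bases before both annotated starts of Bcl6 and before the first of the 4 of Lef1, the one at the start of the gene, are shown (RefSeq, GRCm38.p6, on the strand of the gene, 5′ to 3′). Of the 6 genes 5 were matched, all but Ets1. The sequence AATCAC, the core of the site that Gfi1 binds, was searched on both strands in windows of 300 bases, of which the last 50 follow the start. The motif was in 10.4% of all 32851 such windows, and in 2 of the 13 windows of the member genes. Neither the 2 windows of Bcl6 nor the 4 of Lef1 held it. Both windows with it belong to Satb1, overlap, and hold the same 2 matches. One of them is shown too, chosen after its matches were seen, and capitals mark these matches (GTGATT is the motif on the other strand). The Bcl6 stretches lie on the minus strand at chr16:23988853-23989102 and chr16:23981284-23981533, that of Lef1 on the plus strand at chr3:131110047-131110296, and that of Satb1 on the minus strand at chr17:51812055-51812304. A match says that these letters occur there, not that a factor binds.
Bcl6, start 1: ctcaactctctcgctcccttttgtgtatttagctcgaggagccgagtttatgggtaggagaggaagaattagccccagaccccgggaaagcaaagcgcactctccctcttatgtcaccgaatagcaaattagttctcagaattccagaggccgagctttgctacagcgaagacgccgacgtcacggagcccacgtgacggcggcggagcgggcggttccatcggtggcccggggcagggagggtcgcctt
Bcl6, start 2: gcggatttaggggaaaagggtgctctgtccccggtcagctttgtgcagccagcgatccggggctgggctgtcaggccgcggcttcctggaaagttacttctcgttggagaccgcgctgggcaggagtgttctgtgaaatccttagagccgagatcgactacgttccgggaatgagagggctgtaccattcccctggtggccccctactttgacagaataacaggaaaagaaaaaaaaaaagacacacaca
Lef1, start 1: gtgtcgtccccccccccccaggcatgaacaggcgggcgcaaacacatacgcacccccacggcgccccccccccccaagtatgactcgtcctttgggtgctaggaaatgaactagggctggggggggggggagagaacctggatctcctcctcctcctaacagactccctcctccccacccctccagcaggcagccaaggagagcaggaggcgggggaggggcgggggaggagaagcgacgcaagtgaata
Satb1, start 5: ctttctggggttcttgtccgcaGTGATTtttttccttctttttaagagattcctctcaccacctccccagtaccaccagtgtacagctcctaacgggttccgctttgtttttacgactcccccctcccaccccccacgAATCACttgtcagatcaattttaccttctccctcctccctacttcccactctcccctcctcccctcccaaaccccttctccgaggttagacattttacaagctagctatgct

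Satb1 (chr17:51736187-51833290, minus strand), the chromatin organiser, had 3 probe sets, all with small differences. The brightest (1416008_PM_at) had 12.64 and 12.66 on the hCD2-iCre x Gfi1fl/fl arrays, against 12.57 and 12.75 on the WT arrays, and its difference of -0.007 ± 0.09 (SE; 95% interval -0.22 to 0.20) was the narrowest bound in the group. The probe set 1416007_PM_at, from the same transcript record, had 12.38 and 12.40 on the hCD2-iCre x Gfi1fl/fl arrays, against 12.32 and 12.51 on the WT arrays. In both, the floxed-label arrays lay between the WT arrays. The third (1436182_PM_at), from another record, had 11.45 and 11.43 on the hCD2-iCre x Gfi1fl/fl arrays, against 11.51 and 11.85 on the WT arrays. Its labels did not overlap, but the difference of -0.24 ± 0.14 (SE) was smaller than the gap of 0.34 between the WT arrays (limma, adjusted p = 0.812). Without WT replicate 2 it was -0.07, and the differences of the other pair were then 0.07 and 0.08, above 0.

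Bcl11b (chr12:107910403-108004145, minus strand), the commitment factor, had 4 probe sets from 4 transcript records, with differences between -0.23 and 0.08 and adjusted p of at least 0.941 (limma). The brightest (1435227_PM_at) had 11.74 and 11.83 on the hCD2-iCre x Gfi1fl/fl arrays, against 11.61 and 12.05 on the WT arrays. The probe set 1452966_PM_at, with the largest difference, had 10.07 and 10.43 on the hCD2-iCre x Gfi1fl/fl arrays, against 10.20 and 10.76 on the WT arrays, a difference of -0.23 ± 0.22 (SE; 95% interval -0.76 to 0.30). The labels overlapped for all 4 probe sets. The gap between the WT arrays was 0.31 to 0.58, against 0.06 to 0.35 between the hCD2-iCre x Gfi1fl/fl arrays, and every difference between labels was smaller than the WT gap of its probe set. All 4 differences changed sign when 1 WT array was left out. They were 0.05 to 0.23 without WT replicate 2 and -0.51 to -0.08 without WT replicate 1.

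Myb (chr10:21124930-21160984, minus strand), an activator that progenitors and double-positive thymocytes need, had 1 probe set. It had 11.09 and 11.15 on the hCD2-iCre x Gfi1fl/fl arrays, against 10.83 and 11.21 on the WT arrays. The floxed-label arrays lay between the WT arrays, and the difference was 0.10 ± 0.15 (SE, n = 2 each; 95% interval -0.26 to 0.47; limma, adjusted p = 0.994). It was 0.29 without WT replicate 2 and -0.09 without WT replicate 1. The hCD2-iCre x Gfi1fl/fl arrays, whose cell cycle means were far apart, differed by 0.06 in Myb, and the WT arrays by 0.38. The part of cell cycle in the Myb signal was not tested.

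Ets1 (chr9:32636241-32757820), the ETS-domain activator, had 4 probe sets from 2 transcript records. The estimates were larger for the first record, but the intervals overlapped and a difference between records was not tested. The first pair read higher on the floxed label without overlap. For it, 1422027_PM_a_at had 8.94 and 8.83 on the hCD2-iCre x Gfi1fl/fl arrays, against 8.42 and 8.72 on the WT arrays. The other of that record, 1422028_PM_a_at, had 9.10 and 8.85 on the hCD2-iCre x Gfi1fl/fl arrays, against 8.68 and 8.84 on the WT arrays. Their differences of 0.32 ± 0.21 and 0.21 ± 0.20 (SE, n = 2 each) did not pass the test (limma, adjusted p = 0.844 and 0.940). That of 1422028_PM_a_at was smaller than the gap of 0.25 between its hCD2-iCre x Gfi1fl/fl replicates. From the second record, 1452163_PM_at had 11.90 and 12.05 on the hCD2-iCre x Gfi1fl/fl arrays, against 11.90 and 12.04 on the WT arrays. Its difference of 0.004 ± 0.11 (SE) had a 95% interval of -0.25 to 0.26, turned to -0.00295 with median centring and to -0.0165 with a second quantile normalization, and was -0.07 without WT replicate 1 or without hCD2-iCre x Gfi1fl/fl replicate 2. The probe set 1426725_PM_s_at of that record differed by 0.09 ± 0.11 (SE). Its suffix marks probes that can match more than 1 transcript, so it may read other genes too.

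**Figure D2:**
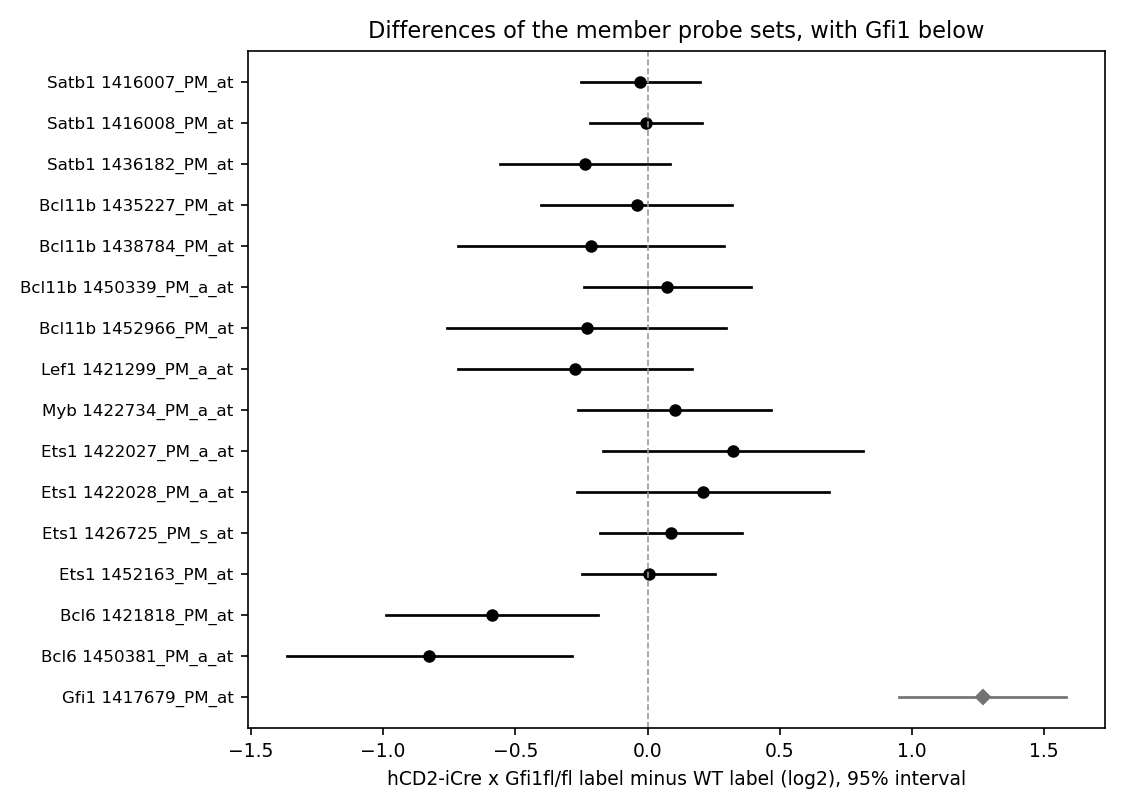
Difference between the hCD2-iCre x Gfi1fl/fl label and the WT label (horizontal axis, log2 RMA signal) for the 15 member probe sets and, in grey, Gfi1, with the 95% interval from limma as a line. The intervals of the 2 Bcl6 probe sets end at -0.19 and -0.29 before adjustment over the table, and those of the other 13 include 0.

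The member probe sets also leaned 1 way between the WT arrays, by gaps of unlike size. These gaps were 0.01 for Lef1, 0.04 and 0.05 for Bcl6, and 0.05 to 0.30 for Ets1. They were 0.18 to 0.34 for Satb1, 0.38 for Myb and 0.31 to 0.58 for Bcl11b. WT replicate 2 was above WT replicate 1 for 14 of the 15 probe sets, the exception being 1426725_PM_s_at of Ets1, whereas this held for 48.0% of the 10072 probe sets above the upper quartile of every array. hCD2-iCre x Gfi1fl/fl replicate 2 was above its replicate 1 for 7 of the 15, against 48.0% of the bright probe sets. The 15 are not independent, since probe sets of 1 gene share their transcripts and all share the arrays.

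**Figure D3:**
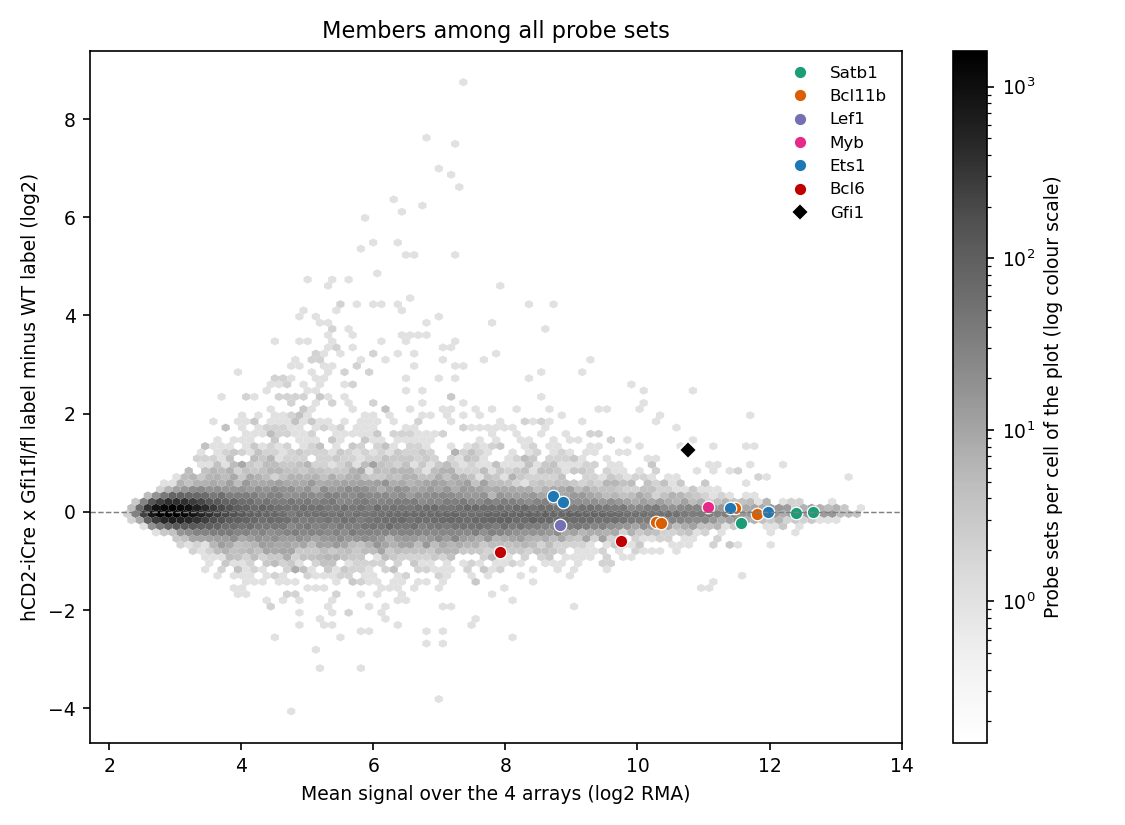
Difference between the labels (vertical axis, log2) against the mean signal over the 4 arrays (horizontal axis, log2 RMA) for all 45037 probe sets in grey, darker where more probe sets fall (log colour scale), with the member genes in colour and Gfi1 as a diamond. The member probe sets, at mean signals above the upper quartile of every array, lie near 0 except for those of Bcl6, at -0.59 and -0.82.

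By the smallest distance between profiles centred over the 4 arrays, the genes most like Bcl6 were Sergef and C87436, with root mean square distances of 0.02 and 0.03, and 108 genes lay within 0.1. Sergef had 4.07 and 3.79 on the hCD2-iCre x Gfi1fl/fl arrays, against 4.50 and 4.52 on the WT arrays. C87436 had 5.25 and 4.96 on the hCD2-iCre x Gfi1fl/fl arrays, against 5.66 and 5.67 on the WT arrays. With 4 arrays such likeness is common, and the other members spanned under 0.5 between arrays and were not matched.

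Genes reported in other work to be repressed by Bcl6, mostly in B cells and follicular helper T cells, differed widely between the labels. They were tested with 1 probe set per gene, against 0.942% of all genes called higher and 0.170% called lower. Of 10 measured, 4 rose, 1 fell and 5 did not pass (limma), with a median difference of 0.89 against -0.02 over all genes. Several of them were known from earlier results of these data to differ, so their count is no independent evidence. Klf2, a factor of quiescence and egress, had 9.66 and 9.97 on the hCD2-iCre x Gfi1fl/fl arrays, against 4.70 and 4.53 on the WT arrays, a difference of 5.20 ± 0.24 (SE; limma, adjusted p = 0.000301). Gpr183, an oxysterol receptor that guides lymphocyte position, had 9.14 and 8.41 on the hCD2-iCre x Gfi1fl/fl arrays, against 4.64 and 4.07 on the WT arrays. Its difference was 4.42 ± 0.34 (SE; limma, adjusted p = 0.00185), and its other probe set differed by 3.15. These 2 genes were far apart between labels on all arrays.

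Id2, the inhibitor of E proteins, had 8.97 and 8.66 on the hCD2-iCre x Gfi1fl/fl arrays, against 7.41 and 6.73 on the WT arrays, a difference of 1.74 ± 0.28 (SE; limma, adjusted p = 0.0429). S1pr1, the receptor needed for thymic exit, had 5.21 and 5.30 on the hCD2-iCre x Gfi1fl/fl arrays, against 4.01 and 3.65 on the WT arrays, a difference of 1.43 ± 0.22 (SE; limma, adjusted p = 0.0361). Both calls were marginal. Over all probe sets the same 2 probe sets had adjusted p of 0.0627 and 0.0501 (limma), and 1 of the 3 probe sets of Id2 was called. The call of Id2 was lost without WT replicate 2 (0.167), and that of S1pr1 without WT replicate 1 or 2 (0.0966 and 0.246) and with a replicate block (0.0713). Without the intensity trend the adjusted p were 0.106 for Id2 and 0.0548 for S1pr1. Cd44, the hyaluronan receptor, moved the other way. It had 3.57 and 3.60 on the hCD2-iCre x Gfi1fl/fl arrays, against 6.81 and 6.68 on the WT arrays, a difference of -3.16 ± 0.23 (SE; limma, adjusted p = 0.00151). The values on the floxed label lay just above the array medians of 3.53 to 3.55, where background makes up much of the signal, so the size of this difference is uncertain and may be larger. The same holds for S1pr1 and Ccnd2, whose WT values lay near the medians. Of the 4 probe sets of Cd44, 2 were called lower over all probe sets. The other pair of Cd44 had signals near the array floor on all arrays, and the mean of the 4 differed by -1.42. Ccnd2, the D-type cyclin, averaged 6.09 ± 1.20 on the hCD2-iCre x Gfi1fl/fl arrays and 3.78 ± 0.32 on the WT arrays (SD, n = 2 each), and did not pass (limma, adjusted p = 0.136). Prdm1, the repressor that opposes Bcl6, differed by 0.36 ± 0.20 (SE; limma, adjusted p = 0.797), and Cd69, Selplg and Cxcl10 by 0.13, 0.16 and 0.01.

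**Figure D4:**
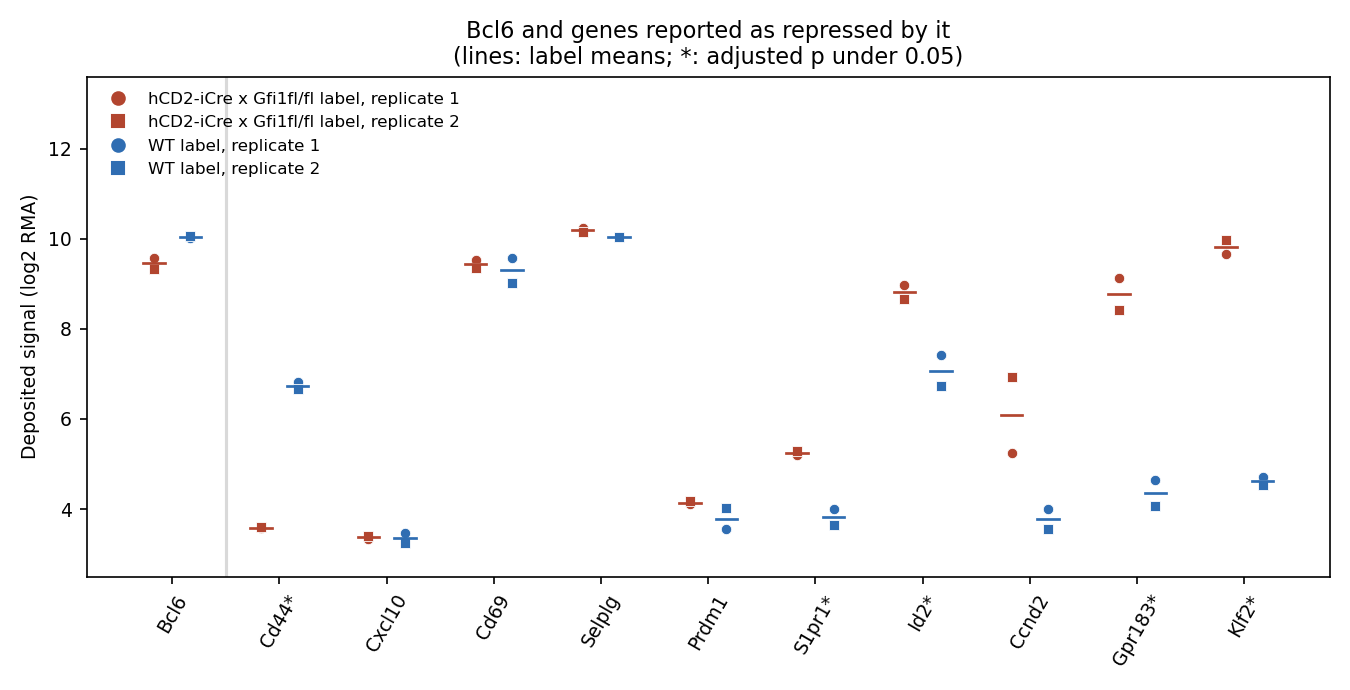
Deposited log2 RMA signal (vertical axis) of Bcl6 and of the 10 measured genes reported as repressed by it, on each array, 1 probe set per gene, ordered by difference, with lines at label means and asterisks at an adjusted p under 0.05. Klf2 and Gpr183 are high on both hCD2-iCre x Gfi1fl/fl arrays, and Cd44 is low on them.

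Genes tied to the other members were mostly not called. Of 8 measured genes reported to depend on Satb1 in thymocytes, none passed (limma; median difference -0.05). The largest differences among them were 1.28 for Runx3 and -0.23 ± 0.20 (SE) for Cd4, and the recombinase genes Rag1 and Rag2 differed by -0.05 and 0.08. Of 9 tied to Bcl11b, only Id2 rose and 8 did not pass (median 0.04), with Zbtb16, the factor of innate-like T cells, at 0.03. None of 7 genes tied to Lef1 or Tcf1 passed (median 0.04). The largest differences there were 0.81 ± 0.31 for Axin2, a feedback inhibitor of beta-catenin, and 0.46 ± 0.32 for Myc (SE; limma, adjusted p = 0.510 and 0.872). The Myc difference was 0.13 without hCD2-iCre x Gfi1fl/fl replicate 2, 0.79 without its replicate 1, 0.20 without WT replicate 2 and 0.72 without WT replicate 1. None of 6 tied to Myb passed (median 0.05), with Gata3 at 0.56 and Myc at 0.46 as the largest, including Bcl2l1, which encodes the survival factor Bcl-xL and differed by 0.02. None of 3 tied to Ets1 passed (median 0.54), with Il2rb at 0.54 and Runx3 at 1.28. Without WT replicate 2 the Axin2 difference was 0.47, and its other probe set differed by -0.22 at low signal. Il2rb had 3.45 and 3.96 on the hCD2-iCre x Gfi1fl/fl arrays, against 3.19 and 3.14 on the WT arrays, above the array median on 1 array only, and its other 2 probe sets differed by -0.02 and 0.10. Its difference was 0.28 without hCD2-iCre x Gfi1fl/fl replicate 2 and 0.79 without replicate 1 (limma, adjusted p = 0.747 and 0.0235), and 0.21 as the mean of its probe sets. These lists share members, with 11 of the 62 related genes on more than 1.

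Family relatives, cofactors and other T cell transcription factors gave no call by limma over all genes. Of 7 relatives of the members, Ets2, the paralogue of Ets1, came nearest: it had 11.03 and 11.07 on the hCD2-iCre x Gfi1fl/fl arrays, against 11.69 and 11.77 on the WT arrays. The difference of -0.68 ± 0.12 (SE, n = 2 each) exceeded both gaps between replicates, with an adjusted p of 0.0528 (limma). It passed under 8 of 14 alternatives. Over all 14 the adjusted p ran from 0.00715 (limma with the cell cycle covariate) to 0.532 (ordinary t statistic). Tcf7l2 differed by 0.23 ± 0.14 (SE) at signals near the array median. Tcf7, the gene of Tcf1, was not analysed here. Of 14 cofactors, Tle1 and Tle4, co-repressors of the Groucho family that bind Lef1, had the largest differences, 1.39 ± 0.30 and 0.77 ± 0.22 (SE; limma, adjusted p = 0.123 and 0.263). Tle1 had 7.58 and 7.41 on the hCD2-iCre x Gfi1fl/fl arrays, against 6.47 and 5.75 on the WT arrays. It passed with the cell cycle covariate and without hCD2-iCre x Gfi1fl/fl replicate 2 (limma, adjusted p = 0.0203 and 0.0223). The other 2 probe sets of Tle4, near the array floor, both differed by 0.10, and the mean of its 3 differed by 0.32. Of 15 other transcription factors of developing T cells, Runx3, a factor of the CD8 lineage, differed by 1.28 ± 0.25 and Gata3, a factor of the CD4 lineage, by 0.56 ± 0.19 (SE; limma, adjusted p = 0.0880 and 0.405). Runx3 had 5.64 and 6.04 on the hCD2-iCre x Gfi1fl/fl arrays, against 4.59 and 4.54 on the WT arrays, and its other probe set differed by 0.08 at a signal near the array floor. It passed without hCD2-iCre x Gfi1fl/fl replicate 1 and with the cell cycle covariate (limma, adjusted p = 0.0133 and 0.0165). Tle1, Tle4, Runx3 and Gata3, named for the size of their differences, lay higher on both floxed-label arrays than on either WT array. The labels did not overlap for 34.5% of all genes, so this separation is common.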

How the data were processed

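Per the labels' protocols, biotin-labelled RNA made with a 3' IVT kit was hybridised to 1-colour Affymetrix arrays. The submitters' processing notes list RMA and Affymetrix Expression Console 1.1. Values as deposited are read here as log2 RMA signals, judged from their range on all 4 arrays (2.19 to 13.5) and nearly equal quartiles, and were used without further normalization. RMA tends to compress differences at low signal. Detection calls were not used here.

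Genes were named from the platform annotation: it gives 1 gene for 28898 probe sets, several for 551, and has no entry for 15588. Labels were compared by limma 3.58.1 (R 4.3.3; lmFit, then eBayes with its intensity trend; 2 residual and 5.05 prior degrees of freedom) over all 45037 probe sets. Calls were made at a two-sided Benjamini-Hochberg adjusted p of 0.05. Related genes were tested with the brightest probe set of each of 17097 genes. The fit was tested on simulated data. Members and gene lists were chosen with earlier results of these data known. From each related list the called genes were named, or the pair with the largest difference where none was called. Other members of those lists, Dntt and a Satb1 promoter were added after their values were seen. Among the alternatives tried, the scaling ones were median centring and a repeated quantile normalization, and the dimmest 30% or 50% were dropped. The others were a replicate block, a prior without trend, a robust prior, an ordinary t statistic, only singly named probe sets, the mean of a gene's probe sets, a cell cycle covariate and leaving out each array. Plots used Python 3.11.15 and matplotlib 3.10.9.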

Additional observations from a re-analysis of the deposited data

How the results depend on the processing

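None of the 15 member probe sets and none of the 6 member genes was called under any of the alternatives tried, 14 at each level. Bcl6 and Lef1 kept a negative difference in all of them, with adjusted p of 0.135 to 0.739 for the Bcl6 probe sets over the table and 0.0683 to 0.727 for the gene. The difference of the Ets1 probe set 1452163_PM_at, near 0, was -0.00295 with median centring and -0.0165 with a second quantile normalization. Leaving out each array in turn changed the sign of some differences. Among them were those of -0.21 and -0.23 of Bcl11b (1438784_PM_at and 1452966_PM_at). The ranges were -0.12 to 0.069 and -0.10 to 0.083 for Satb1 (1416007_PM_at and 1416008_PM_at), and -0.088 to 0.29 for Myb. For Bcl11b they were -0.26 to 0.18 (1435227_PM_at), -0.50 to 0.079 (1438784_PM_at), -0.080 to 0.23 (1450339_PM_a_at) and -0.51 to 0.051 (1452966_PM_at), and for Ets1 (1452163_PM_at) -0.070 to 0.078. The cause was not tested.

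Over the table, 345 probe sets were called, 299 higher and 46 lower on the hCD2-iCre x Gfi1fl/fl label. Without the trend there were 205, 182 and 23, with the cell cycle covariate 715, 541 and 174, and by an ordinary t statistic 1, 0 and 1 (3080 at an unadjusted p under 0.05). Leaving out each array gave 168 to 368, with 147 to 329 higher and 20 to 73 lower. Of genes, 190 were called, 161 higher and 29 lower. By an ordinary t there were 0, 0 and 0 (1219 at an unadjusted p under 0.05), with the covariate 516, 342 and 174, and without the trend 18 lower. Leaving out each array gave 103 to 475, 87 to 325 and 10 to 178. Of 62 related genes 5 were called, against 3 without the trend, 0 by an ordinary t (which left every gene uncalled), 9 with the covariate and 3 to 9 without 1 array. The Gfi1 difference of 1.27 had an adjusted p of 0.0511 without the trend and 0.574 by an ordinary t, and lay between 1.19 and 1.35 without 1 array. With a replicate block, 272 probe sets were called, 28 of them lower, and no member. Same-numbered arrays deviated with a correlation of 0.30 over probe sets, but with 2 pairs and no label that ties them the numbers were not taken as pairs. Fits with 1 array on a side take the spread from the other label. Precision is limited by having 2 arrays per label.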
